A study of Mus musculus with 6 samples.

Results

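Cholesterol is made from acetyl-CoA through mevalonate, isoprenoid diphosphates, squalene and lanosterol, and the transcripts of this pathway were followed in mouse hepatic stellate cells. The set comprised 27 genes taken by symbol from a table of exon counts for 24940 genes. It held 20 enzymes of synthesis, 3 genes that control the transcription factor SREBP2 (Srebf2, Scap and Insig1) and 4 genes of sterol transport and esterification (Stard4, Npc1, Npc2 and Soat1). The members, and the related lists below, were chosen by name for their role in the pathway, with earlier results of these data known.

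When sterols are low in the membrane of the endoplasmic reticulum, SCAP carries SREBP2 to the Golgi, where proteases release the part that enters the nucleus and switches on most genes of the pathway. When sterols are high, INSIG proteins hold SCAP and SREBP2 in the endoplasmic reticulum. Cells also take cholesterol from lipoproteins, release it from lysosomes through NPC1 and NPC2, and store the excess as esters made by acyl-transferases such as SOAT1. Stellate cells are pericytes of the liver sinusoids that, when quiescent, store vitamin A as retinyl esters in lipid droplets.

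The cells were primary hepatic stellate cells of wild-type female C57BL/6JBomTac mice (no age is given in the sources used here), measured as polyadenylated RNA. At 2 days after isolation they received either 10 µM obeticholic acid (OCA), a bile acid analog and agonist of the nuclear receptor FXR, or an equal volume of its vehicle DMSO (1:1000). VIP (vasoactive intestinal peptide, a peptide transmitter that acts through cAMP) was added at 500 nM 3 h later for a further 3 h. The groups DMSO+VIP and OCA+VIP held 3 libraries each, and both received VIP, so every difference is OCA against vehicle in cells that also saw VIP. Nothing in the labels says that the libraries came from separate mice or cultures, and the spread that the p-values rest on may therefore be technical.

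Column totals ran from 2839106 to 9947968 counts, and the 3 OCA+VIP libraries (from 4534359.5) were on the whole deeper than the 3 DMSO+VIP libraries (up to 4574160.5). Levels are counts-per-million values (CPM, scaled to the column total) with the SD over 3 libraries. All 15 stellate cell markers were present at a mean of at least 1 CPM, and their sum was 925 to 1208 CPM in DMSO+VIP and 1064 to 1180 CPM in OCA+VIP. Single stellate markers did change: 4 rose (Colec11, Dcn, Ecm1 and Vipr1) and 3 fell (Col1a1, Des and Hgf), 46.7% of the 15 against 11.8% of all tested genes. Transcripts of hepatocytes were also present: 14 markers summed to 74.0 to 82.0 CPM in DMSO+VIP and 246 to 403 CPM in OCA+VIP. Of the 9 that could be tested, 8 rose (88.9% called, against 11.8% of all tested genes), while Cps1 and Tat were at 0 in every library. Marker sums in DMSO+VIP and OCA+VIP were 6.16 to 14.9 and 17.3 to 21.0 CPM for cholangiocytes, 15.3 to 36.8 and 28.3 to 42.7 CPM for Kupffer cells, 1.61 to 6.52 and 4.74 to 10.6 CPM for sinusoidal endothelial cells, and 0 to 1.31 and 5.88 to 10.4 CPM for lymphocytes. Krt7, Timd4, C1qa, C1qb, C1qc, Vsig4, Lyve1, Fcgr2b, Ptprc, Cd3e, Cd3g, Ms4a1 and Nkg7 were at 0 in every library. Cd68 alone made up most of the Kupffer sum (15.3 to 26.5 CPM in DMSO+VIP and 24.4 to 36.1 CPM in OCA+VIP). Cd79a alone made up most of the lymphocyte sum in OCA+VIP (3.67 to 8.35 CPM) and was at 0 in DMSO+VIP. Krt19 made up most of the cholangiocyte sum in OCA+VIP (10.25 to 14.4 CPM), and its groups overlapped (2.29 to 13.3 CPM in DMSO+VIP). Neither Krt19 nor Sox9, the cholangiocyte markers that could be tested, passed (adjusted p = 0.332 and 0.731, edgeR). The sums of hepatocyte, cholangiocyte and lymphocyte markers did not overlap between the groups, those of stellate, Kupffer and endothelial markers did, and the part of any of them in the results for the cholesterol genes was not tested. In bulk RNA, fewer cells of a type and less RNA per cell cannot be told apart.

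Of the cholesterol genes, Insig1, which encodes the sterol-regulated brake on SREBP2, was the only 1 that passed the test for a change. It rose 1.68-fold with OCA, while none of the 19 tested enzymes of synthesis passed the test in either direction. Differences between Insig1 and the enzymes were not tested. Of the 26 genes tested, 1 rose, 0 fell and 25 did not pass, by edgeR's quasi-likelihood test at an adjusted p under 0.05 over all 11286 tested genes. Of all tested genes 11.8% passed, 5.72% higher and 6.04% lower, against 3.85% of the cholesterol genes. At an unadjusted p under 0.05, 3 of the 26 were higher (Fdps, Sc5d and Insig1) and 3 lower (Mvk, Pmvk and Nsdhl). Over all tested genes the shares at this threshold were 12.9% higher and 13.1% lower. DESeq2 and limma-voom on the same genes each called Insig1 and Sc5d higher and 0 members lower. Without the filter on low counts, edgeR called Fdps, Sc5d and Insig1 higher and Pmvk lower, and DESeq2 also called Nsdhl lower. The median log2 fold change of the 26 was 0.24, with 18 above 0 and 8 below, beside a median of 0.00 over all tested genes. The 3 libraries of each group did not overlap for 6 members that were higher with OCA (23.1%, against 16.8% of all tested genes) and for 2 that were lower (7.69%, against 13.9%).

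**Figure D1:**
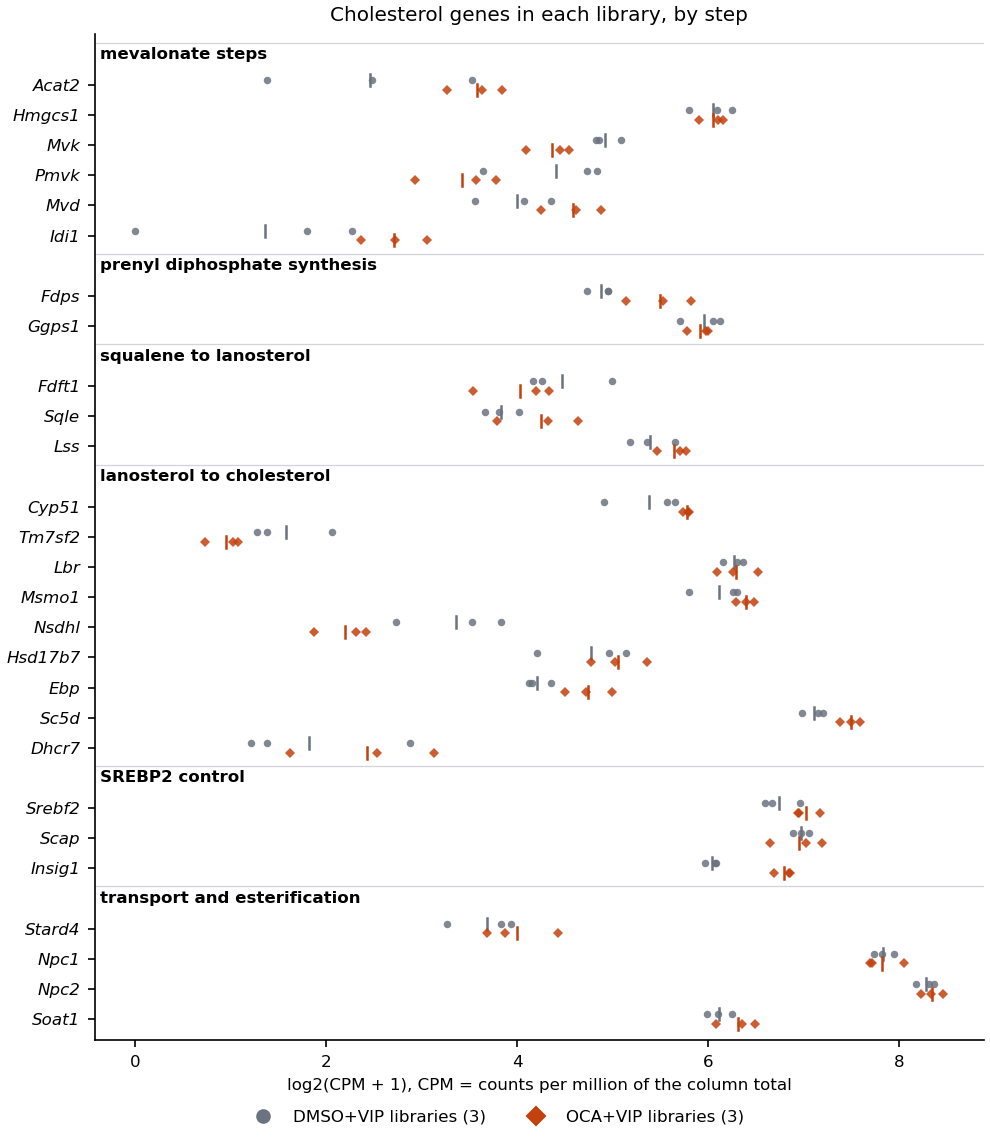
Level of each cholesterol gene in each library as log2(CPM + 1), grouped by step of the pathway; grey circles are the 3 DMSO+VIP libraries, orange diamonds the 3 OCA+VIP libraries and vertical ticks the group means. The groups stand clearly apart for Insig1 and lie within the same range for genes such as Hmgcs1, Lbr and Npc2.

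Insig1 (chr5:28071412-28078662, plus strand, mm10) stood at 66.0, 61.6 and 66.8 CPM in the 3 DMSO+VIP libraries and at 115, 114 and 102 CPM in the 3 OCA+VIP libraries. All 3 OCA+VIP libraries were above all 3 DMSO+VIP libraries. The means were 64.8 ± 2.795 and 110.4 ± 7.36 CPM (SD, n = 3 each), from 726.5 and 2250 counts per group. The log2 fold change was 0.75 (SE 0.14, 95% interval 0.46 to 1.05, adjusted p = 0.00115, edgeR). Leaving out each library in turn gave 0.69 to 0.80, and the gene passed the test in 6 of 6 such fits. No exon of another annotated gene overlapped its exons.

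Upstream sequence was read for Insig1, the member that passed the test, and for Hmgcs1, the enzyme whose promoter is a textbook SREBP target. It was taken as the 250 bases before the RefSeq start (GRCm38.p6, the assembly of mm10). Capitals mark matches on either strand to CCAAT (the NF-Y box, which reads ATTGG on the other strand), GGGCGG (the GC box of Sp1, CCGCCC on the other strand) and TCACNCCAC (the sterol regulatory element that SREBP binds). Insig1 is at chr5:28071162-28071411 and Hmgcs1 at chr13:119690101-119690350, both on the plus strand, 5′ to 3′.
Insig1: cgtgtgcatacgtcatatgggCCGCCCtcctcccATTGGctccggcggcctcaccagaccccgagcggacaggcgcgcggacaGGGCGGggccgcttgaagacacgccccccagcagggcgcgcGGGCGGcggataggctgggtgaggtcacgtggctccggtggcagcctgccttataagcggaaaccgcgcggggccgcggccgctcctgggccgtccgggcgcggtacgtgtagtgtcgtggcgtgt
Hmgcs1: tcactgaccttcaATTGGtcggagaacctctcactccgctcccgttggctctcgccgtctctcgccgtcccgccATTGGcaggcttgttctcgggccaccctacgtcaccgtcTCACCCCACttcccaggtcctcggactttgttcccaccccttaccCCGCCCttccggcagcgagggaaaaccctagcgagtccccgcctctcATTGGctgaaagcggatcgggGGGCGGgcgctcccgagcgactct

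A window was found for 22 of the 27 members, all but Fdft1, Fdps, Npc1, Sqle and Stard4. CCAAT occurred in 20 of the 22, against 37.5% of all 27025 genes with a window and 40.5% of the 8875 tested genes with one. GGGCGG occurred in 19 of the 22, against 35.4% of all genes and 65.8% of the tested ones. The sterol element in these exact letters occurred in 1 of the 22, Hmgcs1, where it lay 137 to 129 bases before the start, against 1.22% of all genes. The FXR inverted repeat of spacing 1 (both strands searched) was in 0 of the 22 and in 2 of all genes. These are matches of letters in a fixed window, with no measurement of binding, and they say nothing of sites elsewhere. No match overlaps another in the sequences shown.

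The first steps build mevalonate and turn it into the isoprene unit, and their 6 genes split evenly, 3 above 0 and 3 below. None of the 6 passed the edgeR test in either direction. At an unadjusted p under 0.05 there were 0 higher and 2 lower, beside 12.9% and 13.1% of all tested genes. Hmgcs1, which condenses acetoacetyl-CoA to HMG-CoA, gave the closest agreement between groups in this step. It stood at 67.3, 54.6 and 75.1 CPM with vehicle and at 70.5, 58.9 and 67.8 CPM with OCA, so the OCA+VIP range lay inside the vehicle range. The log2 fold change was -0.02 with a 95% interval of -0.37 to 0.34, or 0.774-fold to 1.26-fold. Acat2, the cytosolic thiolase that supplies acetoacetyl-CoA, had few counts and ranged from 1.61 to 10.5 CPM with vehicle and from 8.61 to 13.3 CPM with OCA (log2 fold change 0.95, SE 0.56, adjusted p = 0.296).

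The kinases that act in turn on mevalonate and phosphomevalonate had lower values with OCA, and neither passed the edgeR test. Mvk, the first kinase, stood at 27.3, 32.9 and 27.9 CPM with vehicle and at 16.1, 20.9 and 22.3 CPM with OCA. Its groups did not overlap, and the log2 fold change of -0.58 (SE 0.25) had an adjusted p of 0.144 by edgeR. Pmvk, the kinase that follows, stood at 11.5, 25.5 and 27.6 CPM with vehicle and at 6.62, 12.7 and 10.9 CPM with OCA. Its first vehicle library was below the second OCA+VIP library, so the groups overlapped. The log2 fold change was -1.10 (SE 0.38, 95% interval -1.88 to -0.32, adjusted p = 0.0616, edgeR), and without DMSO+VIP library 1 it was -1.42 with an adjusted p of 0.0222. That was the only 1 of the 6 fits leaving out a library in which Pmvk passed. Mvd, the decarboxylase after the kinases, had values on the other side of 0, with 10.7 to 19.4 CPM with vehicle, 18.0 to 28.3 CPM with OCA and a log2 fold change of 0.59 (SE 0.30, adjusted p = 0.223). Idi1, which isomerises isopentenyl diphosphate, had the lowest mean per length of the members in the vehicle libraries, though not with OCA. It stood at 3.83, 2.47 and 0 CPM with vehicle and at 7.28, 5.58 and 4.13 CPM with OCA. The groups did not overlap, but only 24.5 counts stood behind the vehicle group, and the log2 fold change of 1.37 had an interval of -0.49 to 3.24. Summed over the 6 genes, the level was 140 ± 10.8 CPM with vehicle and 136 ± 3.28 CPM with OCA.

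Prenyl diphosphate synthesis joins isoprene units, and its 2 genes differed in their values. Fdps makes farnesyl diphosphate, the branch point between sterols and prenylated proteins. It stood at 29.8, 25.5 and 29.9 CPM with vehicle and at 55.6, 45.0 and 34.2 CPM with OCA, with all 3 OCA+VIP libraries above the vehicle libraries but spread over a wide range. The log2 fold change was 0.64 (SE 0.23, 95% interval 0.18 to 1.11, adjusted p = 0.0661, edgeR). Of its exon bases, 26.7% are shared with the predicted coding gene Gm43738 on the same strand, so some of its reads could be assigned to either. Ggps1, which extends farnesyl to geranylgeranyl diphosphate, ranged from 51.1 to 68.6 CPM with vehicle and from 53.9 to 63.0 CPM with OCA. Its log2 fold change was -0.07 with an interval of -0.42 to 0.29.

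The 3 genes that make squalene and close it to lanosterol had overlapping groups and did not pass the test. At an unadjusted p under 0.05 the count was also 0, beside 12.9% higher and 13.1% lower over all tested genes. Fdft1, squalene synthase, ranged from 16.9 to 30.8 CPM with vehicle and from 10.6 to 19.2 CPM with OCA (log2 fold change -0.50, SE 0.32, adjusted p = 0.339), and 18.3% of its exon bases lie opposite exons of Ctsb. Sqle, the oxygen-dependent squalene epoxidase, stood at 15.2, 13.0 and 11.7 CPM with vehicle and at 19.0, 23.8 and 12.8 CPM with OCA. Here 1 OCA+VIP library fell within the vehicle range and the other 2 lay above it, and the log2 fold change was 0.45 (SE 0.33, adjusted p = 0.423). Lss, the cyclase that forms lanosterol, ranged from 35.2 to 49.1 CPM with vehicle and from 43.0 to 53.5 CPM with OCA (log2 fold change 0.23, SE 0.20).

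From lanosterol to cholesterol, 7 of the 8 tested genes had a log2 fold change above 0 and 1, Nsdhl, below, with a median of 0.30. None of the 8 passed the edgeR test. At an unadjusted p under 0.05, 1 was higher and 1 lower, beside 12.9% and 13.1% of all tested genes. Sc5d, the sterol desaturase of this stage, came closest. It stood at 125, 141 and 147 CPM with vehicle and at 166, 192 and 180.1 CPM with OCA, and the groups did not overlap. The log2 fold change of 0.37 (SE 0.12, 95% interval 0.11 to 0.62) had an adjusted p of 0.0541 by edgeR. It passed in 6 of 16 alternative fits, among them DESeq2, limma-voom and library-size scaling, and in 0 of the 6 that leave out a library.

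Nsdhl, an X-linked dehydrogenase that acts in removal of the methyl groups at carbon 4, stood at 10.5, 5.64 and 13.3 CPM with vehicle and at 2.65, 4.32 and 3.96 CPM with OCA. Every OCA+VIP library was below every vehicle library. The log2 fold change was -1.44 (SE 0.59, 95% interval -2.67 to -0.22, adjusted p = 0.120, edgeR), on 113.5 and 78 counts per group. Ebp, the sterol isomerase, stood at 16.4, 19.4 and 16.7 CPM with vehicle and at 25.4, 30.8 and 21.6 CPM with OCA, again without overlap (log2 fold change 0.56, SE 0.27, adjusted p = 0.195). Cyp51, the demethylase that acts on lanosterol, stood at 46.3, 29.1 and 49.3 CPM with vehicle and at 52.4, 54.5 and 54.4 CPM with OCA. Its groups did not overlap either, and 1 low vehicle library widened the spread (log2 fold change 0.35, SE 0.20, adjusted p = 0.281).

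Msmo1, the sterol methyl oxidase, ranged from 54.5 to 77.8 CPM with vehicle and from 77.6 to 88.4 CPM with OCA (log2 fold change 0.25, SE 0.17). Hsd17b7, the 3-ketosterol reductase, ranged from 17.4 to 34.3 CPM with vehicle and from 26.4 to 40.01 CPM with OCA (log2 fold change 0.23, SE 0.25). Lbr, the lamin B receptor, and Tm7sf2 both encode sterol reductases for the same double bond, and they differed in level. Lbr ranged from 70.4 to 81.3 CPM with vehicle and from 67.3 to 91.2 CPM with OCA, with a log2 fold change of 0.01 and an interval of -0.31 to 0.33. Tm7sf2, the 1 member not tested, stood at 1.42, 3.17 and 1.61 CPM with vehicle and at 0.662, 1.11 and 1.03 CPM with OCA, from 21.5 and 20 counts per group. That is close to the level that a count of 0 allows, taken as 18 counts over a group (1.61 CPM with vehicle and 0.887 CPM with OCA). Dhcr7, which carries out the last reduction in one branch of the pathway, ranged from 1.31 to 6.34 CPM with vehicle and from 2.07 to 7.72 CPM with OCA, and its interval of -1.09 to 2.45 leaves the direction unresolved. Summed over the 9 genes of this stage, the level was 385 ± 29.7 CPM with vehicle (367 to 419) and 462 ± 34.6 CPM with OCA (439.6 to 502), with Sc5d the largest single contributor.

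**Figure D2:**
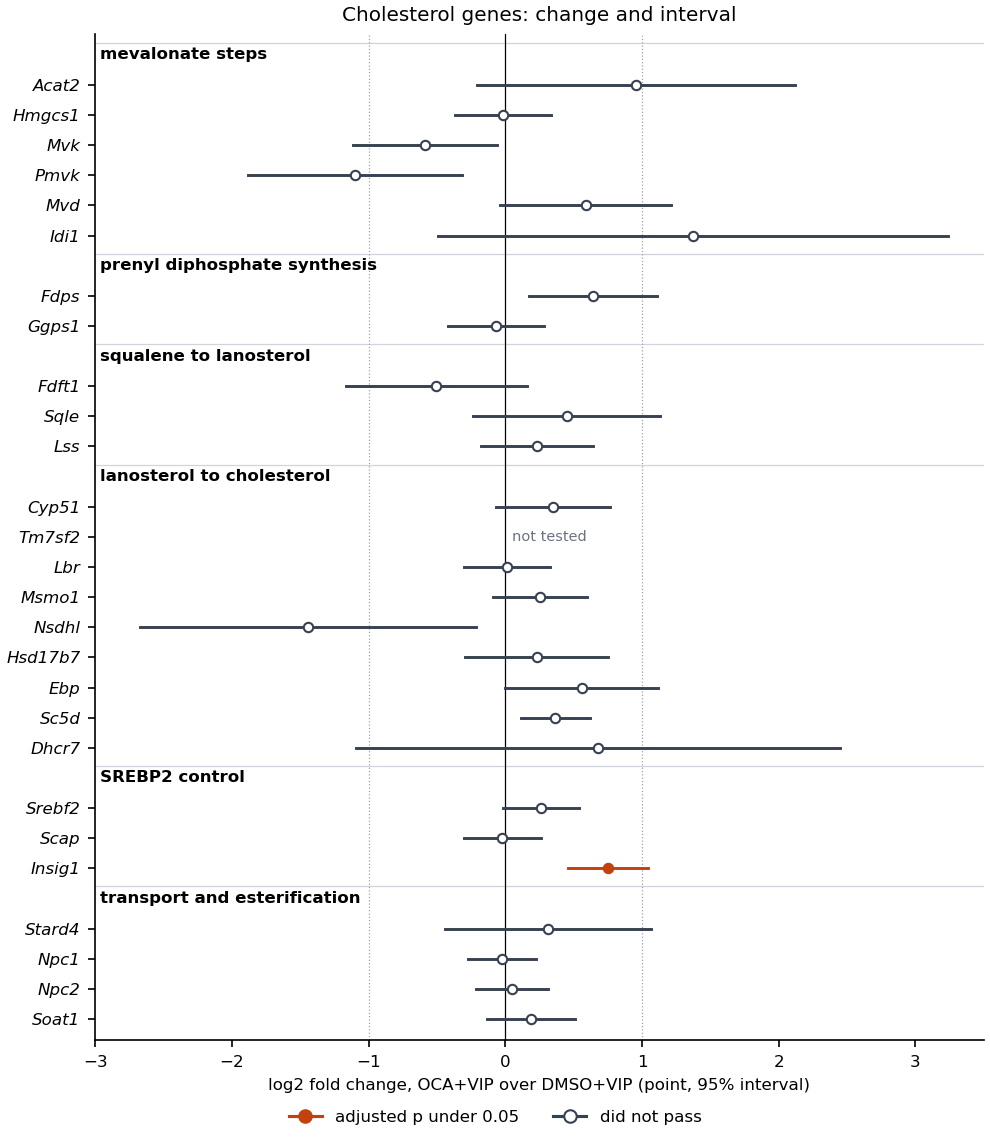
Log2 fold change of OCA+VIP over DMSO+VIP for each cholesterol gene, with the 95% interval as a horizontal line; the filled point passed the test (adjusted p under 0.05) and open points did not, and dotted lines mark a 2-fold change. The interval of Insig1 runs from 0.46 to 1.05, while those of Idi1 and Dhcr7 span more than a 2-fold change on the upper side.

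Of the 3 SREBP2 control genes, Insig1 rose, and Srebf2 and Scap did not pass. Srebf2, which encodes SREBP2, stood at 124, 101 and 95.8 CPM with vehicle and at 123, 143 and 122 CPM with OCA. The first vehicle library lay inside the OCA+VIP range, and the log2 fold change was 0.26 (SE 0.13, 95% interval -0.02 to 0.54, adjusted p = 0.230, edgeR). Scap, the sterol-sensing escort of SREBP2, stood at 132, 125 and 118 CPM with vehicle and at 99.4, 145 and 129 CPM with OCA, so 1 OCA+VIP library lay below the vehicle range, 1 above it and 1 inside it. Its log2 fold change was -0.02 with an interval of -0.30 to 0.26, and 13.2% of its exon bases lie opposite another transcript. The interval of Insig1 (from 0.46) overlaps that of Srebf2 (up to 0.54) and does not meet that of Scap (up to 0.26); differences between the genes were not tested.

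Transport and esterification genes had among the narrowest intervals, and none of the 4 passed. At an unadjusted p under 0.05 there were 0, beside 12.9% higher and 13.1% lower over all tested genes. Npc1, the lysosomal membrane protein that exports cholesterol, stood at 225, 212 and 245 CPM with vehicle and at 206, 264 and 209 CPM with OCA (log2 fold change -0.02, interval -0.27 to 0.23). Npc2, its soluble partner in the lysosome, ranged from 288 to 329 CPM with vehicle and from 299 to 352 CPM with OCA (log2 fold change 0.05, interval -0.21 to 0.31). Soat1, which esterifies cholesterol for storage, ranged from 62.6 to 75.0 CPM with vehicle and from 66.8 to 89.2 CPM with OCA (log2 fold change 0.19, interval -0.13 to 0.51). Stard4, a soluble sterol carrier, ranged from 8.63 to 14.3 CPM with vehicle and from 11.8 to 20.5 CPM with OCA, and its interval of -0.44 to 1.06 was wider.

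How much each missing call says depends on the interval. For 8 of the 26 tested genes (Hmgcs1, Ggps1, Lbr, Srebf2, Scap, Npc1, Npc2 and Soat1) the whole 95% interval lay within a 1.5-fold change in either direction. For 13 it lay within a 2-fold change, adding Lss, Cyp51, Msmo1, Hsd17b7 and Sc5d. The upper bound went beyond 2-fold for 8 genes that did not pass (Acat2, Mvd, Idi1, Fdps, Sqle, Ebp, Dhcr7 and Stard4), and the lower bound did so for 5 (Mvk, Pmvk, Fdft1, Nsdhl and Dhcr7). For those genes the data do not bound the change to less than 2-fold.

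Levels of different genes are comparable only per length, here as CPM per kilobase of exon (RPKM). In the vehicle libraries Npc2 was the most abundant member at 95.5 ± 6.39 RPKM, followed by Sc5d at 61.4 ± 4.97, Npc1 at 43.9 ± 3.19, Msmo1 at 38.1 ± 7.04 and Scap at 29.7 ± 1.77 RPKM. The per-library ranges of Npc1 and Msmo1 overlapped, while Npc2 lay above Sc5d in every vehicle library. Insig1 came next at 24.5 ± 1.06 RPKM, followed by Srebf2 (23.5 ± 3.26), Fdps (23.0 ± 2.02) and Lbr (21.6 ± 1.57), each overlapping its neighbour in that order. With OCA the level of Insig1 was 41.8 ± 2.79 RPKM. At the low end were Stard4 (2.27 RPKM), Tm7sf2 (1.41), Dhcr7 (1.10) and Idi1 (0.733 ± 0.678 RPKM). Within 1 pathway the levels of the enzymes thus spanned from 0.733 RPKM for Idi1 to 61.4 RPKM for Sc5d. Summed in CPM, all 27 genes gave 1606 ± 55.9 with vehicle and 1796 ± 105 with OCA, and the sums did not overlap (1547 to 1659 against 1717 to 1915). This sum was not tested. Insig1 (mean 64.8 to 110 CPM) and Sc5d (137 to 179 CPM) differed most in CPM. Sums of the lanosterol-to-cholesterol and SREBP2 control genes did not overlap between groups. Those of the mevalonate, prenyl diphosphate, squalene and transport genes did.

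The wider sterol pathway was read from 8 lists with 93 further genes, of which 83 were tested. Of these 7 rose and 9 fell (19.3% called, against 11.8% of all tested genes), and the median log2 fold change was 0.02. Among 4 synthesis genes outside the set, 3 were tested and 1 rose (33.3% called, against 11.8% of all tested genes). Aacs, which activates acetoacetate for lipid synthesis, rose from 64.4, 39.6 and 75.1 CPM to 76.3, 102 and 99.4 CPM (log2 fold change 0.61, adjusted p = 0.0339). All 3 OCA+VIP libraries were above the vehicle libraries, but by a narrow margin over the third, and the gene passed in 1 of the 6 fits that leave out a library, that without DMSO+VIP library 3. Acat1, the mitochondrial thiolase (0.18, adjusted p = 0.811), and Erg28, a scaffold of sterol synthesis (-0.11, adjusted p = 0.855), did not pass.

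Around the SREBP machinery, 2 of 16 tested genes fell and 14 did not pass, a share called of 12.5%, near the 11.8% of all tested genes. Mbtps1, the Golgi site-1 protease that makes the first cut in SREBPs, fell from 149, 156 and 168 CPM to 64.5, 111 and 104 CPM (log2 fold change -0.78, adjusted p = 0.00159), with every OCA+VIP library below every vehicle library. Erlin2, which acts in protein degradation at the endoplasmic reticulum, fell by 0.61 (adjusted p = 0.00541) and was lost without OCA+VIP library 3 (adjusted p = 0.0553). Pgrmc1, a heme-binding membrane protein, did not pass (log2 fold change 0.39, adjusted p = 0.0572). Genes that use isoprenoids for ubiquinone, dolichol and protein prenylation mostly did not pass, with 1 of 12 lower (8.33% called, against 11.8% of all tested genes). That gene was Coq2, which attaches the side chain of ubiquinone (log2 fold change -0.67, adjusted p = 0.0408), and it passed in 2 of the 6 fits that leave out a library (those without DMSO+VIP library 3 or OCA+VIP library 2) and neither under library-size scaling nor by limma-voom. Nus1 (0.35, adjusted p = 0.0729) and Rabggtb (0.37, adjusted p = 0.0946) did not pass.

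Of 11 tested lipoprotein uptake genes, 1 rose, 1 fell and 9 did not pass (18.2% called, against 11.8% of all tested genes). Mylip, the ubiquitin ligase that sends lipoprotein receptors for degradation, rose from 86.9, 70.1 and 93.9 CPM to 219, 182 and 217 CPM. The lowest OCA+VIP library was well above the highest vehicle library, and the log2 fold change was 1.29 (adjusted p = 2.96e-06). Lrp1, a large endocytic receptor, fell from 348, 187 and 193 CPM to 77.2, 115 and 79.2 CPM (log2 fold change -1.44, adjusted p = 1.62e-05). The vehicle library at 348 CPM stood apart, and without it the log2 fold change was -1.10 and the gene still passed. Lrp8 did not pass (0.43, adjusted p = 0.353).

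**Figure D3:**
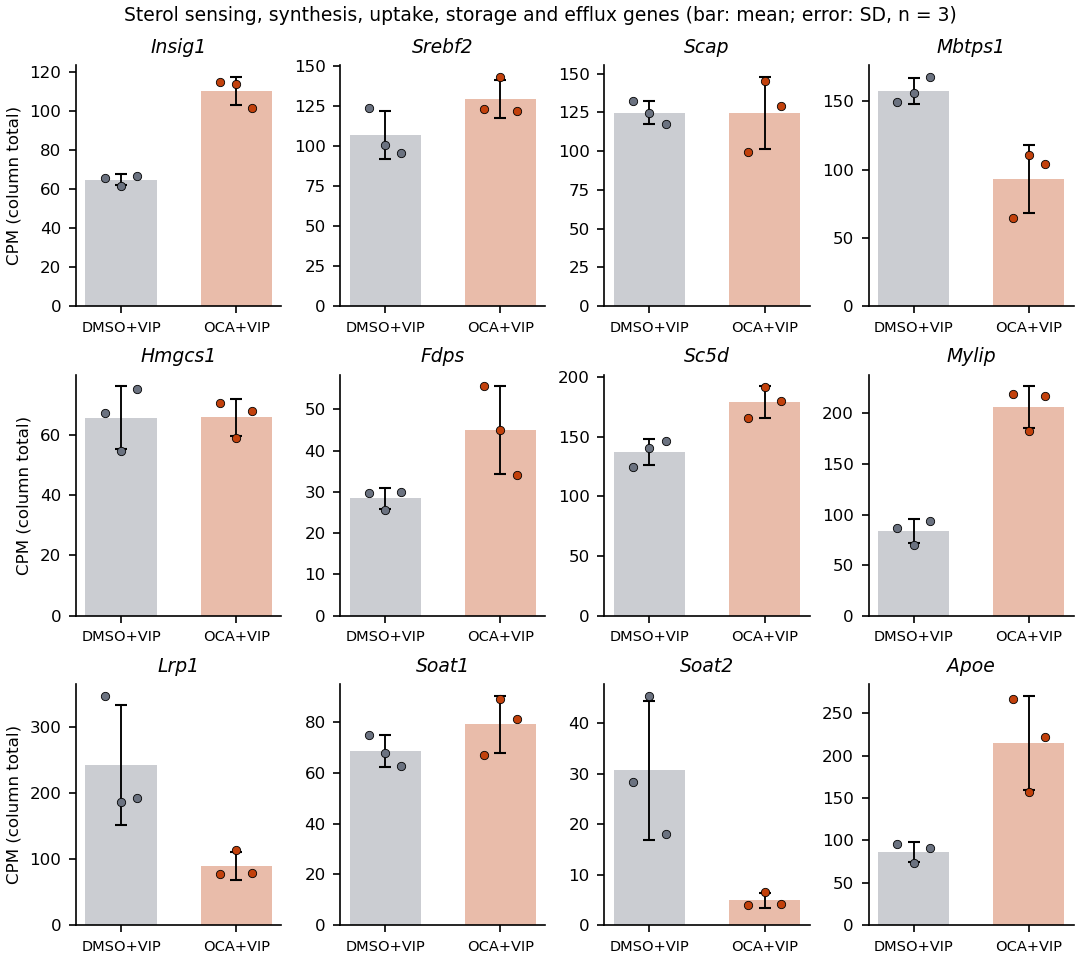
CPM of 12 genes in the 3 DMSO+VIP (grey) and 3 OCA+VIP (orange) libraries; bars are means, error bars SD (n = 3) and points single libraries. Insig1 and Mylip stand higher and Mbtps1, Lrp1 and Soat2 lower with OCA without overlap, whereas Scap, Hmgcs1 and Soat1 overlap.

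In sterol transport and ester turnover, 2 genes rose, 2 fell and 14 did not pass of 18 tested (22.2% called, against 11.8% of all tested genes), and the median log2 fold change was -0.09. Soat2, the esterifying enzyme best known from hepatocytes and intestine, fell from 28.4, 45.4 and 18.1 CPM to 4.08, 6.63 and 4.13 CPM (log2 fold change -2.63, adjusted p = 6.34e-05), whereas its relative Soat1 did not pass. Their 95% intervals did not meet, and the difference between them was not tested. Scarb2, a lysosomal membrane protein, fell by 0.64 (adjusted p = 0.00177). Gramd1c, of a family that moves cholesterol from the plasma membrane to the endoplasmic reticulum, rose from 2.91 ± 0.694 to 12.9 ± 1.61 CPM (log2 fold change 2.13, adjusted p = 0.00887). Only 33.5 counts stood behind its vehicle group, against 255.5 with OCA. The log2 fold change of Gramd1c was 1.97 to 2.23 when each library was left out. Its call ended without OCA+VIP library 1 (adjusted p = 0.0567) and by limma-voom (adjusted p = 0.0685). Osbpl2, an oxysterol-binding protein relative, was the other gene that rose (0.55, adjusted p = 0.0291). It is named because its list's calls are few, was chosen after its values were seen, and passed in 2 of the 6 fits that leave out a library, again those without DMSO+VIP library 3 or OCA+VIP library 2.

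Sterol efflux and LXR genes gave 1 rise and 2 falls among 8 (37.5% called, against 11.8% of all tested genes). Apoe, the apolipoprotein of efflux and of hepatocyte lipoproteins, rose from 96.2, 73.6 and 90.7 CPM to 267, 157 and 222 CPM (log2 fold change 1.30, adjusted p = 3.1e-05). Beside it, the 14 hepatocyte markers summed to 74.0, 80.7 and 82.0 CPM with vehicle and to 403, 246 and 356 CPM with OCA; their part in this result was not tested. Abca1, the transporter that loads cholesterol onto apolipoproteins, fell from 54.2 ± 5.63 to 21.1 ± 10.4 CPM (log2 fold change -1.36, adjusted p = 0.000972), and Arl4c fell by 1.33 (adjusted p = 0.00219). Of 8 genes listed as oxysterol enzymes only 3 were tested, and 1 of these passed (33.3% called, against 11.8% of all tested genes). Whether that gene, Ephx1, acts on oxysterols was not examined. Ephx1, a microsomal epoxide hydrolase, fell from 144 ± 9.20 to 65.0 ± 8.10 CPM (log2 fold change -1.16, adjusted p = 1.45e-05), and Cyp27a1 (-0.91, adjusted p = 0.196) and Hsd3b7 (-0.89, adjusted p = 0.287; 62.0% of its exon bases are shared with the coding gene Gm49388 on the same strand) did not pass. Of 12 tested SREBP1 targets in fatty acid synthesis, 2 rose (16.7% called, against 11.8% of all tested genes): Me1, which supplies NADPH (0.74, adjusted p = 0.000565), and Fasn, fatty acid synthase (0.58, adjusted p = 0.00246). Acly, which makes cytosolic acetyl-CoA, did not pass (0.34, adjusted p = 0.0552).

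**Figure D4:**
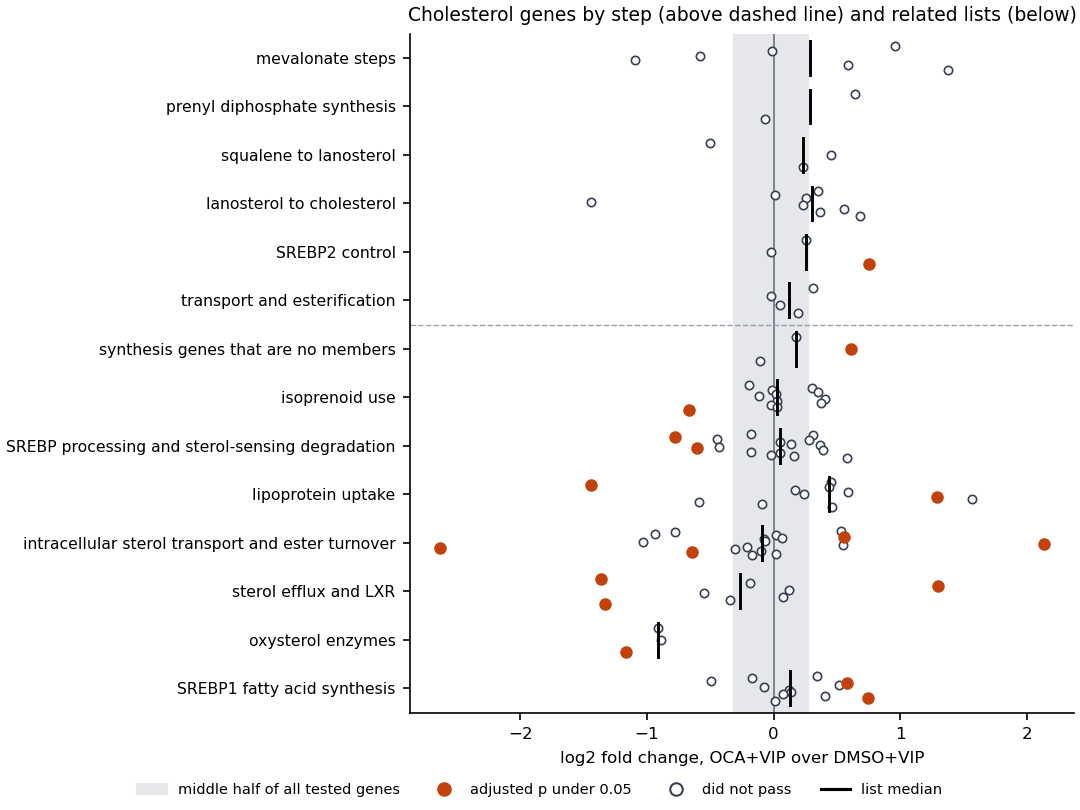
Log2 fold change of OCA+VIP over DMSO+VIP for each tested gene of the cholesterol set by step (above the dashed line) and of the 8 related lists (below it); filled points passed the test, black ticks are list medians and the grey band holds the middle 50% of all tested genes. The steps of synthesis have medians between 0.23 and 0.30, and the list named oxysterol enzymes has the lowest median at -0.91, over 3 genes that include Ephx1.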

How the data were processed

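Expected counts of exon reads for 24940 genes in 6 libraries were deposited by the authors in steps of 0.5, not adjusted for library size. The submitters' processing notes name mm10, STAR, HOMER and DESeq2 without role or version; whether counting used strand is not given in the sources used here. Columns were assigned to groups by name, and library numbers are column numbers.

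Rounded counts were fitted in edgeR 4.0.16 (R 4.3.3): TMM scaling, filterByExpr (minimum count 10, total 15), a two-sided quasi-likelihood F test between the 2 groups with 4 residual degrees of freedom, and Benjamini-Hochberg adjustment over 11286 genes at 0.05. CPM and RPKM use column totals. Standard errors were derived from the edgeR test, as the size of the log2 fold change over the square root of F. The 95% intervals use these and the t quantile at the degrees of freedom that return the test's p (21.654 for the tested members). Many low counts lie at or near multiples of 6, though not all (Tm7sf2 had 3 and 11 counts in OCA+VIP libraries 1 and 2). On that basis 18 counts per group (3 steps of 6) was taken as the level a count of 0 allows, for counting error only. Tested on simulated data of this comparison with 11286 genes, the fit recovered 69% of the changes of 2-fold and 100% of those of 4-fold, with 8 false calls. These rates are totals over 100 changes of each size and were not split by level. Changes were placed only in genes above a minimum mean level, which Idi1 and Dhcr7 did not reach. Every simulated gene was given the same biological coefficient of variation, 0.198. Whether the rates hold for members with few counts, such as Idi1, Dhcr7 and Nsdhl (SE 0.90, 0.85 and 0.59), was not tested.

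All 27 members are named, and from each related list the 3 genes of smallest p among those averaging 1 CPM or more. Some genes of the pathway are not reported here. Members and lists were chosen with earlier results of these data known. Alternatives were 3 other scalings, 2 other filters, DESeq2 1.42.0, limma-voom (limma 3.58.1), counts divided by 6, a replicate block, leaving out each library, and 2 other thresholds. DESeq2 without the filter was chosen after seeing the data. Exon overlaps came from GENCODE M21 and promoters from RefSeq. Tables used pandas 2.3.3 in Python 3.11.15, and figures matplotlib 3.10.9.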

Additional observations from a re-analysis of the deposited data

How the results depend on the processing

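Insig1 passed in all 16 alternative fits. The count of cholesterol genes that rose was 1 by the reported test, 2 under library-size scaling, DESeq2, limma-voom and counts divided by 6 (which left 6 members untested), and 3 without a filter, with DESeq2 without the filter and at an adjusted p under 0.1. The count that fell was 0, and it was 1 without a filter and at an adjusted p under 0.1 and 2 with DESeq2 without the filter. Leaving out each library gave 1 to 1 rises and 0 to 1 falls, the fall being Pmvk without DMSO+VIP library 1. For all genes the count of 1328 became 648 (303 higher, 345 lower) at an adjusted p under 0.01 and 2244 (1130 higher, 1114 lower) with DESeq2 without the filter. Leaving out each library gave 737 to 1478 calls, 310 to 745 higher and 395 to 733 lower; the lowest came from removing OCA+VIP library 1 (737), OCA+VIP library 3 (751) and DMSO+VIP library 1 (877). Of the related genes, 7 rose; this became 13 at an adjusted p under 0.1 and with DESeq2 without the filter, and leaving out each library gave 4 to 9 rises (4 without OCA+VIP library 1) and 7 to 10 falls. Log2 fold changes near 0 changed sign: Lbr was -0.026 under upper-quartile scaling and Scap 0.0014 under library-size scaling. Leaving out each library gave -0.12 to 0.097 for Hmgcs1, -0.18 to 0.0063 for Ggps1, -0.075 to 0.11 for Lbr, -0.11 to 0.086 for Scap, -0.11 to 0.029 for Npc1, -0.18 to 0.93 for Acat1, -0.18 to 0.019 for Erg28 and -0.049 to 0.14 for Npc2. The cause of these differences was not tested. Libraries of equal number did not deviate together (correlations -0.04, -0.05 and 0.03). No pairing by number was therefore visible, but such correlations cannot show whether the libraries were paired. With the replicate block 1118 genes passed, among the cholesterol genes again 1 higher and 0 lower. Insig1 had an adjusted p of 0.0031 (edgeR) in that fit. Depth limits the rarest members: Idi1, Tm7sf2 and Dhcr7 had 24.5, 21.5 and 30 counts in the vehicle group.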
